A study of Mus musculus with 9 samples.

Results

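The genes described here encode desmosome components: the desmosomal cadherins Dsc2, Dsc3, Dsg1b, Dsg2 and Dsg3, the plaque proteins Dsp, Jup, Pkp1 and Pkp3, and the membrane protein Perp. Every non-control probe set whose only gene symbol was one of these 10 names was taken, which gave 19 probe sets for 9 genes, out of 45037 non-control probe sets and 18193 genes. Dsg3 was not analysed here. RNA of 3 cultured mouse epithelial lines had been hybridised to Affymetrix MG-430 2.0 arrays, 3 arrays per line. The tumour line, MDA-F471, came from a lung adenocarcinoma of a female Gprc5a-knockout mouse killed 16 months after an intraperitoneal injection of NNK, a tobacco carcinogen. The knockout line (NULL-NLE) was grown from the trachea of a Gprc5a-knockout mouse, and the wild-type line (WT-NLE) from the trachea of a Gprc5a wild-type mouse, both aged 3 weeks. The labels give the strain C57/BL6 x sv129 for all 3 lines and call the tracheal lines non-tumorigenic. The tumour and knockout lines thus share the knockout of Gprc5a, a G protein-coupled receptor gene known as a lung tumour suppressor in mice.

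Each group is 1 line, so that a difference between groups cannot be told apart from a difference between lines, and between the tumour and knockout lines organ, mouse age, carcinogen and transformation cannot be told apart. The labels do not say whether the 3 replicates of a line were separate cultures, so the p-values rest on a spread between arrays that may be technical.

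Desmosomes are spot-like junctions that hold neighbouring epithelial cells together and resist mechanical stress. Desmogleins and desmocollins, which are calcium-dependent cadherins, meet across the gap between the cells. Inside the cell their tails bind the armadillo proteins plakoglobin (Jup) and plakophilins, which bind desmoplakin (Dsp), and desmoplakin ties the junction to keratin filaments. Dsg2 and Dsc2 are found in nearly all tissues with desmosomes, simple epithelia included, whereas Dsg1, Dsg3, Dsc1 and Dsc3 belong mainly to stratified epithelia. In the airway, basal cells attach to their neighbours and to the columnar cells above them through desmosomes.

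Values are log2 signals as deposited, on which 1 unit is a doubling of signal. Array medians lay between 6.28 and 6.34, and arrays of 1 line correlated at 0.990 to 0.996 over all non-control probe sets. A gene was represented by its brightest probe set and was called where limma's Benjamini-Hochberg adjusted p over all genes was under 0.05 and the difference was at least 2-fold. The background floor was 5.15, which 95% of the values of bacterial control probe sets did not exceed. Where all 3 arrays of a line lay under it, the fold is given as a lower bound against the floor. Gprc5a itself averaged 7.02 in the tumour line, 7.16 in knockout and 8.57 in wild-type, with knockout minus wild-type at -1.41 ± 0.11 (SE) and tumour minus wild-type at -1.54 ± 0.11. Its signal stayed above the floor in both knockout lines, and whether its probes lie in the deleted stretch was not tested. The epithelial marker Epcam was bright in all 3 lines, at 12.03 in the tumour line, 11.73 in knockout and 11.74 in wild-type, and the basal-cell keratin Krt5 averaged 8.43 in the tumour line, 14.38 in knockout and 14.46 in wild-type. The lung markers Nkx2-1 (5.35 in the tumour line, 5.47 in knockout, 5.18 in wild-type) and Sftpc (5.72, 5.74 and 5.78) lay near the floor in each line.

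Desmosome transcripts were lower in the tumour line than in both tracheal lines, except that the cadherin Dsg2 was higher than in wild-type. Against the knockout line, 8 of the 9 measured genes fell and none rose, where 6.38% of all genes were called lower, 7.79% higher and 14.2% in either direction. The 8 include Dsg1b, whose tumour signal lay under the floor and whose bound there was at least 1.76-fold, under the 2-fold minimum. Against the wild-type line, 8 fell and 1, Dsg2, rose, where 8.46% of all genes were called lower, 8.09% higher and 16.6% in either direction. The knockout line differed from the wild-type line in fewer genes: Dsc3 and Dsg1b fell, Dsg2 rose and 6 were not called, where 2.98% of all genes were called lower, 1.90% higher and 4.88% in either direction. The median difference of the 9 genes was -2.66 for tumour minus knockout, -2.82 for tumour minus wild-type and -0.18 for knockout minus wild-type. Over all 18193 genes the medians were within 0.0101 of 0 in each comparison. The comparisons share arrays, so their values are set side by side and are not independent. In RNA from a whole culture, fewer cells of a type and less RNA per cell cannot be told apart.

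**Figure D1:**
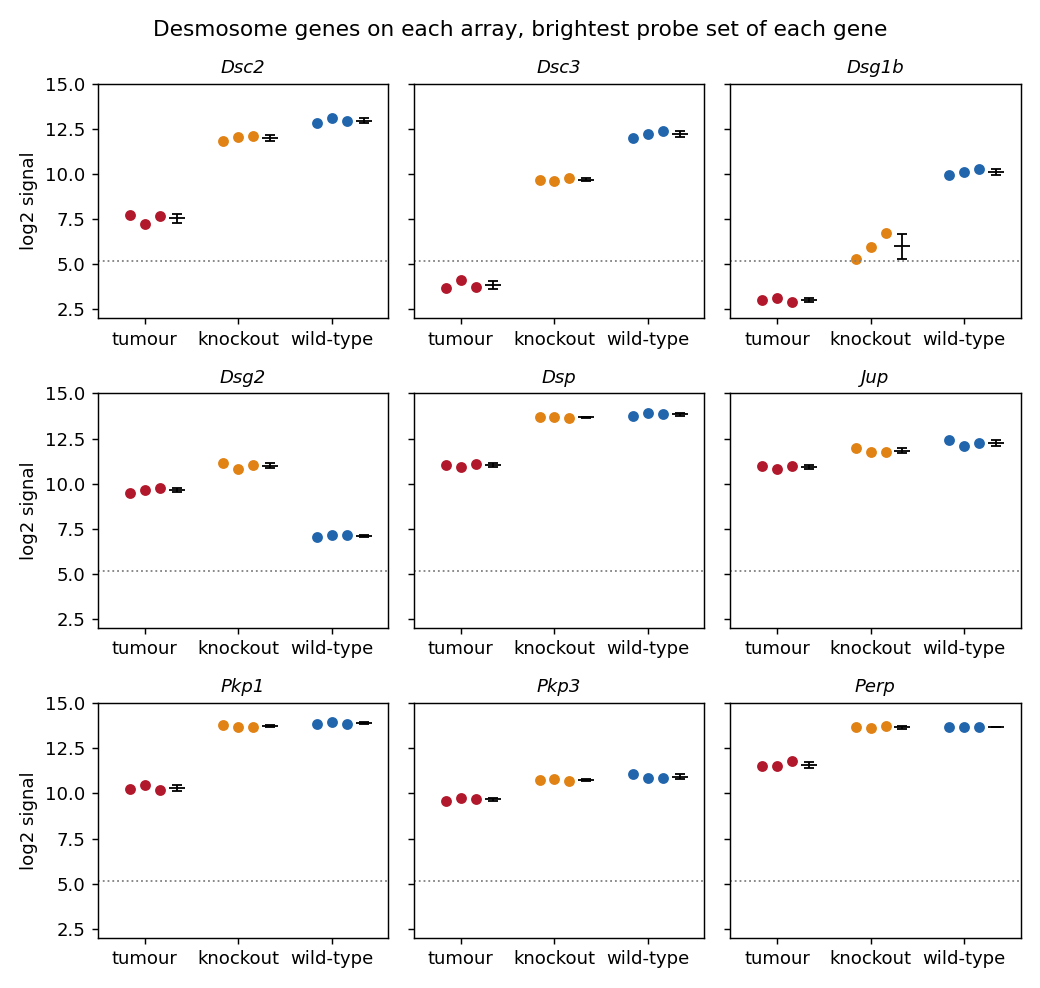
Log2 signal of the 9 measured desmosome genes (brightest probe set each) on every array of the tumour, knockout and wild-type lines; points are arrays, black dashes with bars are means ± SD (n = 3), and the dotted line is the background floor of 5.15. Tumour arrays are lowest for 8 genes, and for Dsg2 they lie between the knockout arrays (10.84 to 11.14) and the wild-type arrays (7.04 to 7.16).

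Among the cadherins, desmocollin 2 (Dsc2, probe set 1426911_at, chromosome 18) is the desmocollin present in most epithelia. It measured 7.71, 7.23 and 7.64 on the tumour arrays, 11.79, 12.05 and 12.07 on the knockout arrays, and 12.82, 13.10 and 12.92 on the wild-type arrays. The 3 lines did not overlap, and the tumour arrays lay far below both tracheal lines. Tumour signal fell 21.8-fold against knockout (log2 difference -4.44 ± 0.13 SE, adjusted p = 9.78e-13) and 42.8-fold against wild-type (-5.42 ± 0.13, adjusted p = 8.11e-14). Knockout minus wild-type was -0.97 ± 0.13, or 1.96-fold lower (adjusted p = 4.56e-05), just short of the 2-fold minimum. On its second probe set, 1421156_a_at, the same comparison gave -1.27 ± 0.14 (adjusted p = 5.11e-05), which was called.

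Desmocollin 3 (Dsc3, 1434534_at, chromosome 18) is the desmocollin of basal layers in stratified epithelia. Its signal was 3.65, 4.09 and 3.74 on the tumour arrays, 9.63, 9.61 and 9.75 on the knockout arrays, and 12.01, 12.22 and 12.35 on the wild-type arrays. All 3 tumour arrays were under the floor, and knockout stood between the tumour and wild-type lines with no overlap. The tumour line was at least 22.9-fold lower than knockout (adjusted p = 2.62e-14) and at least 132-fold lower than wild-type (adjusted p = 7.19e-16). Knockout fell 5.75-fold against wild-type (-2.52 ± 0.12, adjusted p = 1.09e-09). Its dimmer probe set, 1427637_a_at, fell in the same comparisons by less: tumour minus knockout was -1.03 (adjusted p = 0.047), tumour minus wild-type -2.52 and knockout minus wild-type -1.49 (adjusted p = 0.014).

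Desmoglein 1 beta (Dsg1b, 1455519_at, chromosome 18) is a mouse copy of desmoglein 1, a cadherin of differentiating stratified epithelium. The tumour arrays read 3.01, 3.10 and 2.90, the knockout arrays 5.27, 5.94 and 6.69, and the wild-type arrays 9.92, 10.08 and 10.29. The tumour arrays were all under the floor, and the knockout arrays lay just above it with the widest spread of any member in that line (SD 0.71, n = 3). Knockout fell 17.5-fold against wild-type (-4.13 ± 0.24, adjusted p = 8.42e-09), and the tumour line was at least 30.9-fold lower than wild-type (adjusted p = 4.24e-12). Against knockout, the log2 difference was -2.96 ± 0.24 (adjusted p = 8.94e-08), but the bound against the floor was at least 1.76-fold. The mouse carries near-identical tandem copies (Dsg1a, Dsg1b and Dsg1c), and how far this single probe set separates them was not tested.

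Desmoglein 2 (Dsg2, 1439476_at, chromosome 18), the desmoglein of simple epithelia and heart muscle, ran in another order. It measured 9.50, 9.64 and 9.74 on the tumour arrays, 11.14, 10.84 and 11.02 on the knockout arrays, and 7.04, 7.16 and 7.14 on the wild-type arrays. Every knockout array lay above every tumour array, and every tumour array above every wild-type array. Knockout rose 14.8-fold against wild-type (3.88 ± 0.10, adjusted p = 1.11e-12) and the tumour line rose 5.71-fold (2.51 ± 0.10, adjusted p = 2.78e-11), while the tumour line fell 2.59-fold against knockout (-1.37 ± 0.10, adjusted p = 2.94e-08). Dsg2 was the member with the most probe sets, 6 in all. In knockout minus wild-type all 6 were called higher, by 1.02 to 3.88 log2 units. In tumour minus wild-type 4 of 6 were called higher and the range was 0.71 to 2.51. In tumour minus knockout 3 of 6 were called lower, with all 6 between -1.91 and -0.31. The dimmest, 1426153_a_at, averaged 4.92 in the tumour line, 5.23 in knockout and 4.21 in wild-type, near or under the floor.

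The other 3 measured cadherins thus shared the order tumour below knockout below wild-type: all 3 fell in the tumour line against each tracheal line, and 2 fell in knockout against wild-type. Dsg2 was the 1 measured member above wild-type in the knockout line by a called difference.

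**Figure D2:**
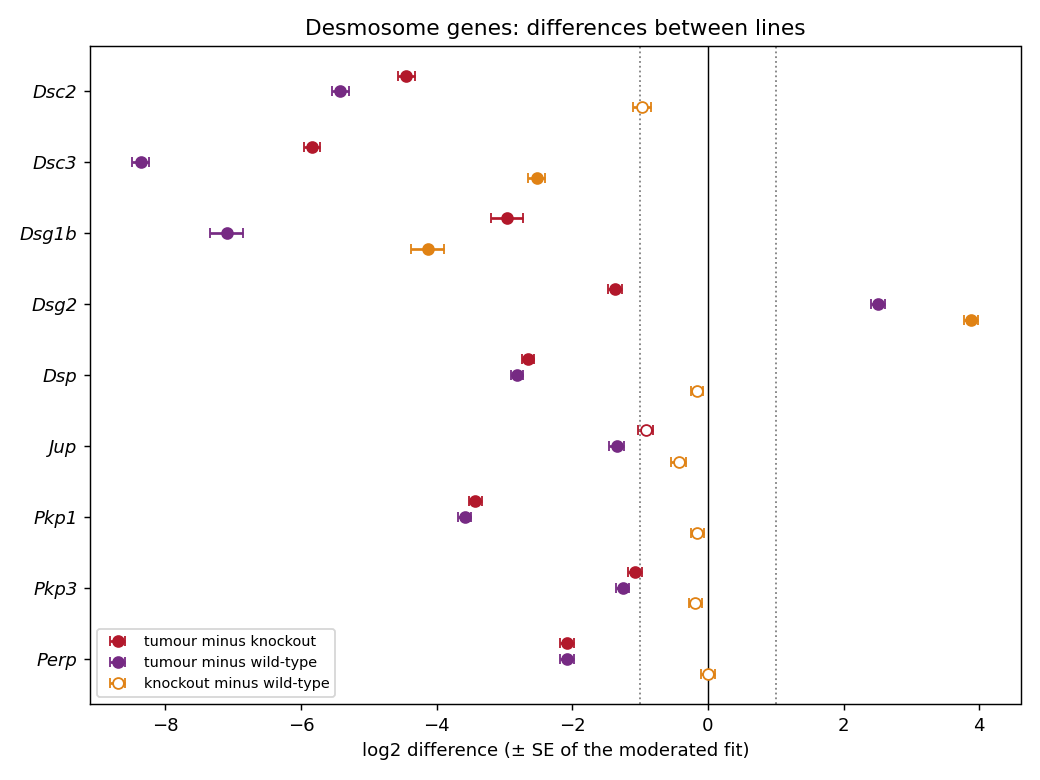
Log2 difference of each measured desmosome gene in tumour minus knockout, tumour minus wild-type and knockout minus wild-type, with the SE of the moderated fit; filled points were called, open points were not, and dotted lines mark a 2-fold difference. Tumour points of Dsc3 and Dsg1b rest on tumour signals under the floor, where the fold is a bound (at least 132-fold for Dsc3 against wild-type), and the 5 plaque and membrane genes lie between -0.43 and -0.00039 in knockout minus wild-type.

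The plaque genes, whose proteins lie inside the cell, also ran tumour below knockout below wild-type. Their knockout minus wild-type differences were smaller in size than those of the measured cadherins. Desmoplakin (Dsp, 1435494_s_at, chromosome 13), the plakin that links the plaque to keratin, measured 11.03, 10.91 and 11.11 on the tumour arrays, 13.69, 13.71 and 13.62 on the knockout arrays, and 13.74, 13.89 and 13.86 on the wild-type arrays. The tumour arrays lay far below both tracheal lines, which did not overlap but lay close together. Dsp fell 6.30-fold in the tumour line against knockout (-2.66 ± 0.09, adjusted p = 5.40e-12) and 7.04-fold against wild-type (-2.82 ± 0.09, adjusted p = 2.15e-12). Knockout minus wild-type was -0.16 ± 0.09 (adjusted p = 0.236). The probe set 1435493_at gave -2.67, -2.74 and -0.07 in the same 3 comparisons. The third, 1427610_at, gave -2.85, -2.56 and 0.29, with wild-type arrays spread from 9.41 to 11.80.

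Plakoglobin (Jup, 1426873_s_at, chromosome 11), the armadillo protein shared by desmosomes and adherens junctions, had the smallest tumour minus knockout difference of the 9 genes. It read 10.98, 10.81 and 10.95 in the tumour line, 11.97, 11.75 and 11.77 in knockout, and 12.44, 12.08 and 12.27 in wild-type. The lines did not overlap. The tumour line fell 2.54-fold against wild-type (-1.35 ± 0.11, adjusted p = 5.88e-08) and was 1.89-fold below knockout (-0.92 ± 0.11, adjusted p = 4.56e-06), under the 2-fold minimum. Knockout minus wild-type was -0.43 ± 0.11 (1.35-fold lower, adjusted p = 0.00766) and not called.

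Promoter windows from RefSeq (GRCm38.p6, 250 bases before the start base and the 50 bases that begin with it) were at hand for 2 members, Dsp and Jup. They are shown because both genes encode plaque proteins and were lower in the tumour line than in wild-type, Dsp by 7.04-fold and Jup by 2.54-fold. Capitals mark the 1 motif match found. The Dsp window is chr13:38151044-38151343 on the plus strand and the Jup window chr11:100397741-100398040 on the minus strand.
Dsp: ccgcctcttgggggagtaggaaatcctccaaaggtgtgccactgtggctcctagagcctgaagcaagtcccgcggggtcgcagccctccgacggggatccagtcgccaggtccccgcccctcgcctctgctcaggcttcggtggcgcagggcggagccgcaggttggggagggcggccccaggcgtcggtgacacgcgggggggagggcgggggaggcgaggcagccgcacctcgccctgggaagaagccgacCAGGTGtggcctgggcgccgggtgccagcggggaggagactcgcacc
Jup: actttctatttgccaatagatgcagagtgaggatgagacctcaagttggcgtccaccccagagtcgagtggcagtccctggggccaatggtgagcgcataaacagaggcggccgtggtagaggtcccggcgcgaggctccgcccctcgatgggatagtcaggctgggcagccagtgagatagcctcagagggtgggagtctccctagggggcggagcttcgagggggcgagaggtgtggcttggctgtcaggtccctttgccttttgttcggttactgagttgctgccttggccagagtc
Letters were searched on both strands. They were TGANTCA for AP-1, CAGGTG for the E-box that Snai and Zeb factors bind, AACNGGTT for Grhl factors and TATAAA for the TATA box. The fifth was a p53-family pair, CATG repeated after any 6 bases. Dsp held CAGGTG from 3 to 8 bases after the start base, at chr13:38151297-38151302, and Jup held none of the 5. Among 32851 windows of the same length, 20.2% held CAGGTG, 7.81% TGANTCA, 2.09% AACNGGTT, 0.712% the p53-family pair and 13.6% TATAAA. GC content was 73% in the Dsp window and 60.7% in the Jup window, against a median of 52.7% over all windows. A match describes letters and does not show that a factor binds there.

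Plakophilin 1 (Pkp1, 1449586_at, chromosome 1), the plakophilin of stratified epithelia, measured 10.22, 10.49 and 10.21 on the tumour arrays, 13.81, 13.70 and 13.71 on the knockout arrays, and 13.86, 13.96 and 13.86 on the wild-type arrays. Tumour arrays stood apart from both tracheal lines, which nearly touched. Pkp1 fell 10.8-fold in the tumour line against knockout (-3.43 ± 0.10, adjusted p = 6.83e-13) and 12.0-fold against wild-type (-3.59 ± 0.10, adjusted p = 3.10e-13), the largest fall among the plaque genes. Knockout minus wild-type was -0.16 ± 0.10 (adjusted p = 0.281).

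Plakophilin 3 (Pkp3, 1418831_at, chromosome 7), which is present in simple and stratified epithelia, read 9.57, 9.74 and 9.70 in the tumour line, 10.77, 10.80 and 10.68 in knockout, and 11.10, 10.85 and 10.84 in wild-type. The tumour arrays were lowest with no overlap. It fell 2.11-fold against knockout (-1.08 ± 0.10, adjusted p = 2.93e-07) and 2.39-fold against wild-type (-1.26 ± 0.10, adjusted p = 4.32e-08). Knockout minus wild-type was -0.18 ± 0.10 (adjusted p = 0.210). Its dimmer probe set, 1418832_at, was not called in any comparison, at -0.60 for tumour minus knockout (adjusted p = 0.168), -0.76 for tumour minus wild-type and -0.16 for knockout minus wild-type.

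Perp (1416271_at, chromosome 10), a tetraspan membrane protein of desmosomes that p53 and p63 are known to activate, measured 11.51, 11.50 and 11.79 on the tumour arrays, 13.67, 13.60 and 13.76 on the knockout arrays, and 13.66, 13.69 and 13.69 on the wild-type arrays. It fell 4.22-fold in the tumour line against knockout (-2.08 ± 0.10, adjusted p = 1.93e-10) and by the same fold against wild-type (adjusted p = 1.55e-10). The knockout and wild-type arrays overlapped, with a difference of -0.00039 (adjusted p = 0.998). Perp was the 1 measured member whose knockout and wild-type arrays overlapped. For the other 8 they did not overlap, where 39.1% of all genes did not. Tumour arrays overlapped with neither tracheal line for any of the 9 genes, where 52.3% of all genes did not overlap against knockout and 54.7% against wild-type.

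Of the 5 plaque and membrane genes, 4 fell in the tumour line against knockout (all but Jup), where 6.38% of all genes were called lower, and 5 fell against wild-type, where 8.46% were. In knockout minus wild-type 0 were called by limma, where 4.88% of all genes were called, and 1 (Jup) had an unadjusted p under 0.05. Dsp, Pkp1 and Perp were bright in the tracheal lines, each brighter than about 99.8% of non-control probe sets in knockout, with array maxima of 14.59 to 14.91. How far signal still follows RNA amount at that brightness was not tested.

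**Figure D3:**
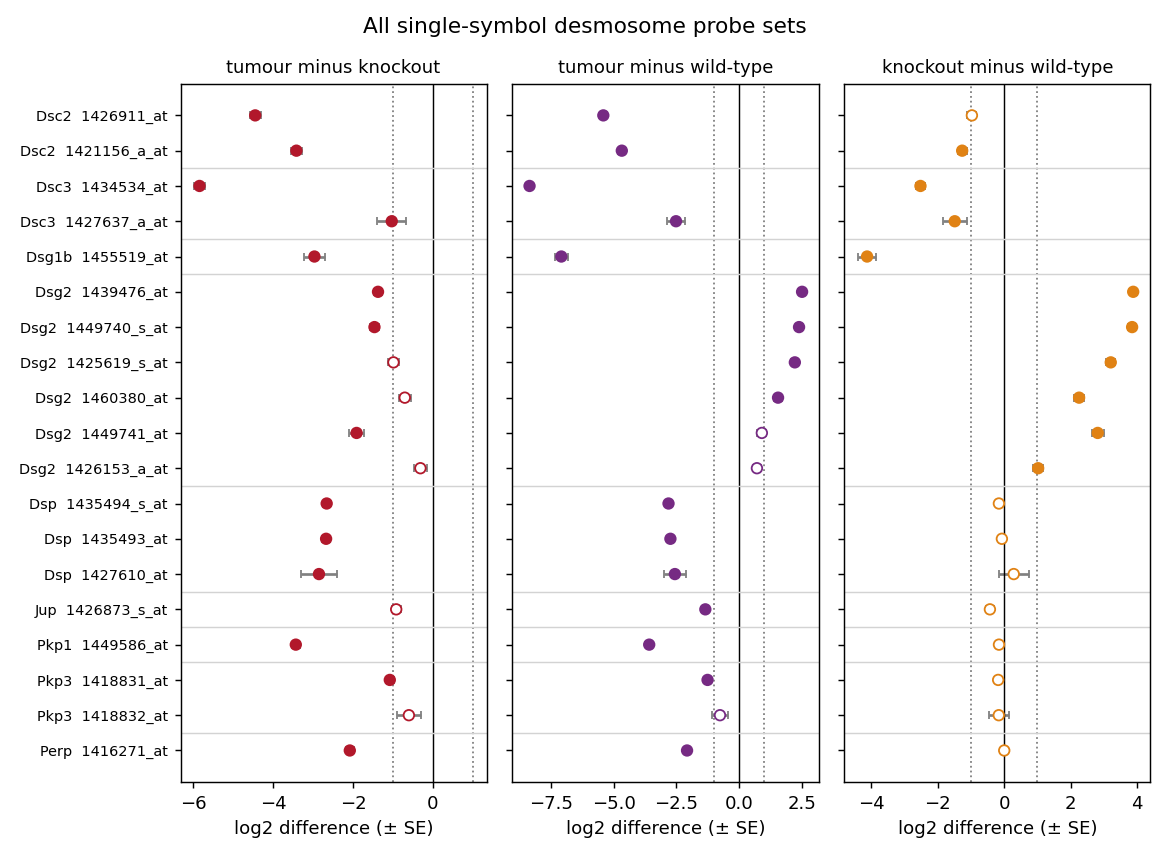
Log2 difference of each of the 19 probe sets of desmosome genes in the 3 comparisons; filled points were called over all non-control probe sets, open points were not, and dotted lines mark a 2-fold difference. All 6 Dsg2 probe sets lie to the right of 0 in knockout minus wild-type (1.02 to 3.88).

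Read on their own, with p-values adjusted over all 45037 probe sets, 14 of the 19 probe sets fell in tumour minus knockout and 0 rose, where 11.4% of all probe sets were called, 5.18% lower and 6.19% higher. In tumour minus wild-type 12 fell and 4 rose, all 4 of Dsg2, where 13.1% of all probe sets were called, 6.42% lower and 6.69% higher. In knockout minus wild-type 4 fell (1421156_a_at of Dsc2, both of Dsc3 and that of Dsg1b) and 6 rose, all of Dsg2, where 3.71% of all probe sets were called, 2.11% lower and 1.61% higher. Members differed in their number of probe sets, and probe sets of 1 gene share its transcripts.

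RNA quality was read from control probe sets at both ends of a transcript. The 3′ minus 5′ signal of the beta-actin control was 0.57 ± 0.19 in the tumour line, 0.93 ± 0.03 in knockout and 1.21 ± 0.53 in wild-type (SD, n = 3). The beta-actin tumour minus knockout difference of -0.36 and the tumour minus wild-type difference of -0.64 each had a two-sided exact permutation p of 0.1, the smallest that 3 against 3 arrays allow. Knockout minus wild-type was -0.28 (exact p = 0.6). The Gapdh control gave -0.05 for tumour minus knockout (exact p = 0.7), -0.34 for tumour minus wild-type (exact p = 0.3) and -0.29 for knockout minus wild-type (exact p = 0.4). Within the wild-type line the beta-actin value was 0.75, 1.09 and 1.78 on replicates 1, 2 and 3. On the same arrays 1427610_at of Dsp read 11.80, 10.90 and 9.41, 1427637_a_at of Dsc3 read 9.72, 8.53 and 7.75, and 1418832_at of Pkp3 read 8.88, 8.24 and 7.24. These dimmer probe sets were lowest on the array with the largest 3′ excess, and the part of RNA quality in their differences was not tested. On these arrays the brightest probe sets read 13.74, 13.89 and 13.86 for Dsp, 12.01, 12.22 and 12.35 for Dsc3, and 11.10, 10.85 and 10.84 for Pkp3.

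The desmosomal cadherin genes lie side by side on chromosome 18. In the RefSeq gene order they run Dsc3, Dsc2, Dsc1, Dsg1c, Dsg1a, Dsg1b, Dsg4, Dsg3 and Dsg2. Of these, Dsg1c, Dsg4 and Dsg3 were not analysed here. Dsg2, the last of the row, was the 1 measured cadherin of the cluster that was higher in knockout than in wild-type; Dsc3, Dsc1, Dsg1a and Dsg1b fell and Dsc2 was 1.96-fold lower without a call. The next gene beyond Dsg2, Ttr (a thyroid hormone carrier), averaged 7.59 in the tumour line, 7.50 in knockout and 7.51 in wild-type and was not called. The gene after it, B4galt6, a galactosyltransferase, averaged 10.42 in the tumour line, 6.47 in knockout and 6.49 in wild-type, and rose in the tumour line by 3.95 log2 units against knockout and 3.93 against wild-type. On the other side of the row Cdh2 (N-cadherin) averaged 5.12 in the tumour line, 4.62 in knockout and 4.50 in wild-type, with no call. The flanking genes were chosen after values of the cluster had been seen.

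**Figure D4:**
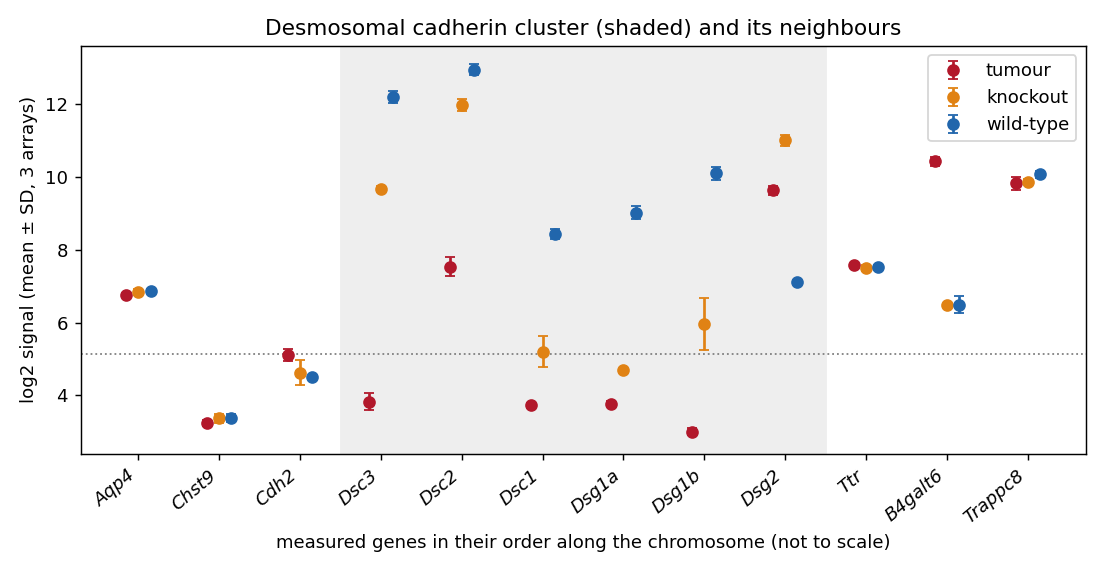
Mean log2 signal ± SD (n = 3 arrays) in the tumour, knockout and wild-type lines for the desmosomal cadherin genes and 3 protein-coding neighbours on each side, in their chromosomal order with equal spacing; shading marks the measured cadherins and the dotted line is the background floor of 5.15. Dsg2 is the measured cadherin with its highest value in the knockout line (11.00).

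Other desmosome genes from a list set beside the members had calls in both directions. Of 11 listed, 9 were measured (Dsg1c and Dsg4 were not analysed here). In tumour minus knockout 2 rose (Pkp2 and Pkp4) and 2 fell (Evpl and Dsc1). In tumour minus wild-type 1 rose (Pkp2) and 5 fell (Dsg1a, Dsc1, Cdsn, Evpl and Ppl). In knockout minus wild-type 0 rose and 4 fell (Dsg1a, Cdsn, Dsc1 and Pkp4). The medians were -0.57, -1.13 and -0.66. Over all genes, 14.2%, 16.6% and 4.88% were called in either direction in these 3 comparisons, which holds for each list that follows.

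Plakophilin 2 (Pkp2), the plakophilin of simple epithelia and heart, measured 10.10, 10.07 and 10.27 in the tumour line, 8.65, 8.43 and 8.45 in knockout, and 8.48, 8.41 and 8.40 in wild-type. It rose 3.11-fold against knockout (1.64 ± 0.10, adjusted p = 1.94e-09) and by 1.72 against wild-type (adjusted p = 9.56e-10), where Pkp1 fell in both. Pkp4, a relative found at several kinds of junction, averaged 9.89 in the tumour line, 8.61 in knockout and 10.09 in wild-type: it rose by 1.28 in the tumour line against knockout (adjusted p = 9.12e-08) and fell by 1.48 in knockout against wild-type (adjusted p = 7.06e-08).

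Corneodesmosin (Cdsn), an extracellular protein of cornified desmosomes, averaged 7.32 in the tumour line, 7.51 in knockout and 11.13 in wild-type, so that knockout fell 12.3-fold against wild-type (-3.62 ± 0.15, adjusted p = 2.38e-10) and tumour minus knockout was -0.18 (adjusted p = 0.382). Dsg1a averaged 3.77 in the tumour line, 4.70 in knockout and 9.01 in wild-type, and both Gprc5a-knockout lines were at least 14.6-fold below wild-type. Dsc1 averaged 3.73, 5.20 and 8.43 in the same order, and the tumour line was at least 9.72-fold below wild-type. Against knockout the Dsc1 bound was at least 1.04-fold, so that its called fall there rests on signal under the floor. The plakins envoplakin (Evpl) and periplakin (Ppl), which join desmosomes to the cornified envelope, were both lower in the tumour line. Evpl fell by 1.82 against knockout (adjusted p = 1.57e-09) and by 2.12 against wild-type, and Ppl fell by 1.13 against wild-type (adjusted p = 2.27e-06). Against knockout Ppl was 1.90-fold lower (-0.92, adjusted p = 2.04e-05), under the 2-fold minimum.

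Keratins, the filaments to which desmoplakin binds, split by type. Of 10 listed, 6 fell and 4 rose in the tumour line against each tracheal line. Those that fell were the stratified keratins Krt5, Krt14, Krt6a, Krt6b, Krt15 and Krt17, with Krt14 at -7.42 ± 0.10 against knockout and -7.26 against wild-type and Krt17 at least 216-fold below knockout and at least 354-fold below wild-type. Those that rose were the simple keratins Krt7, Krt8, Krt18 and Krt19. Krt18 averaged 14.08 in the tumour line, 10.59 in knockout and 8.03 in wild-type. In knockout minus wild-type Krt18 rose by 2.55 and Krt19 fell by 4.90, and the other 8 were not called.

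Of 13 listed adherens junction genes, all measured on their brightest probe set, 1 rose and 2 fell in tumour minus knockout (Nectin2 at 1.90, Cdh3 at -3.03 ± 0.21 and Nectin1 at -1.31). In tumour minus wild-type 1 rose (Nectin2, 1.52) and 2 fell (Cdh3, -2.34, and Nectin4, -1.05). In knockout minus wild-type 0 were called by limma at the 2-fold minimum, while 8 had an unadjusted and 6 an adjusted p under 0.05, where 26.4% of all genes had an adjusted p under 0.05. The medians of the 3 comparisons were -0.04, -0.14 and -0.11. Nectin3, another nectin of the adherens junction, counted as not called because its representative probe set differed by 0.19 for tumour minus knockout, 0.08 for tumour minus wild-type and -0.11 for knockout minus wild-type. Yet 3 of its other probe sets were called higher in the tumour line, by 4.77, 4.61 and 3.21 against knockout and by 3.89, 3.21 and 2.58 against wild-type, and 1 of these 3 was called lower in knockout minus wild-type (-1.40, adjusted p = 0.000244). Its probe sets thus disagree, and which of them follows the gene was not tested. E-cadherin (Cdh1), the main adherens cadherin of epithelia, averaged 11.92 in the tumour line, 12.63 in knockout and 12.88 in wild-type. Its differences of -0.71, -0.97 and -0.26 had limma adjusted p of 1.01e-05, 3.19e-07 and 0.0491. They were not called because they lay under the 2-fold minimum, tumour minus wild-type just short of it at 1.95-fold lower.

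Of 14 factors known to act on desmosome or epidermal genes, 13 were measured (Trp53 was not analysed here). In tumour minus knockout 7 fell and 0 rose, in tumour minus wild-type 7 fell and 0 rose, and in knockout minus wild-type 5 fell and 1, Twist1, rose. Trp63, the basal-cell p53 relative that is known to activate Perp and other desmosome genes, measured 4.29, 4.35 and 4.33 on the tumour arrays, 10.40, 10.92 and 10.75 on the knockout arrays, and 12.08, 12.08 and 12.00 on the wild-type arrays. All tumour arrays were under the floor, at least 46.5-fold below knockout and at least 120-fold below wild-type. Knockout fell by 1.36 ± 0.12 against wild-type (adjusted p = 4.46e-07) on this probe set, the 1 of 4 that was called, while the other 3 gave -0.67 to -0.25. Snai2, a zinc-finger repressor of epithelial genes and a known basal-cell factor, averaged 7.06 in the tumour line, 11.99 in knockout and 12.00 in wild-type, with differences of -4.92 ± 0.09 for tumour minus knockout and -4.94 for tumour minus wild-type. The grainyhead factor Grhl1, known to act on Dsg1 in mouse epidermis, averaged 6.82 in the tumour line, 8.64 in knockout and 10.76 in wild-type and fell in all 3 comparisons (-1.83, -3.95 and -2.12). Grhl3 averaged 6.27, 8.99 and 10.72 in the same order and also fell in all 3. Zeb1, Zeb2 and Snai1, known repressors of junction genes, were not called in any comparison. Snai1 was higher in the tumour line by 0.66 against knockout (adjusted p = 0.000287) and by 0.74 against wild-type (adjusted p = 8.82e-05), both under the 2-fold minimum.

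Of 10 proteases and inhibitors that act on desmosomal cadherins, 1 fell in tumour minus knockout, 3 in tumour minus wild-type and 2 in knockout minus wild-type, and 0 rose. For tumour minus knockout, 1 of 10 is below the 14.2% of all genes called. For Spink5, an inhibitor of the kallikreins that cut desmoglein 1, the tumour line lay at least 87.2-fold below knockout and at least 217-fold below wild-type, and knockout fell by 1.31 against wild-type. Klk5, one of those kallikreins, was in both Gprc5a-knockout lines at least 2.53-fold below wild-type, with all arrays of both under the floor.

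**Figure D5:**
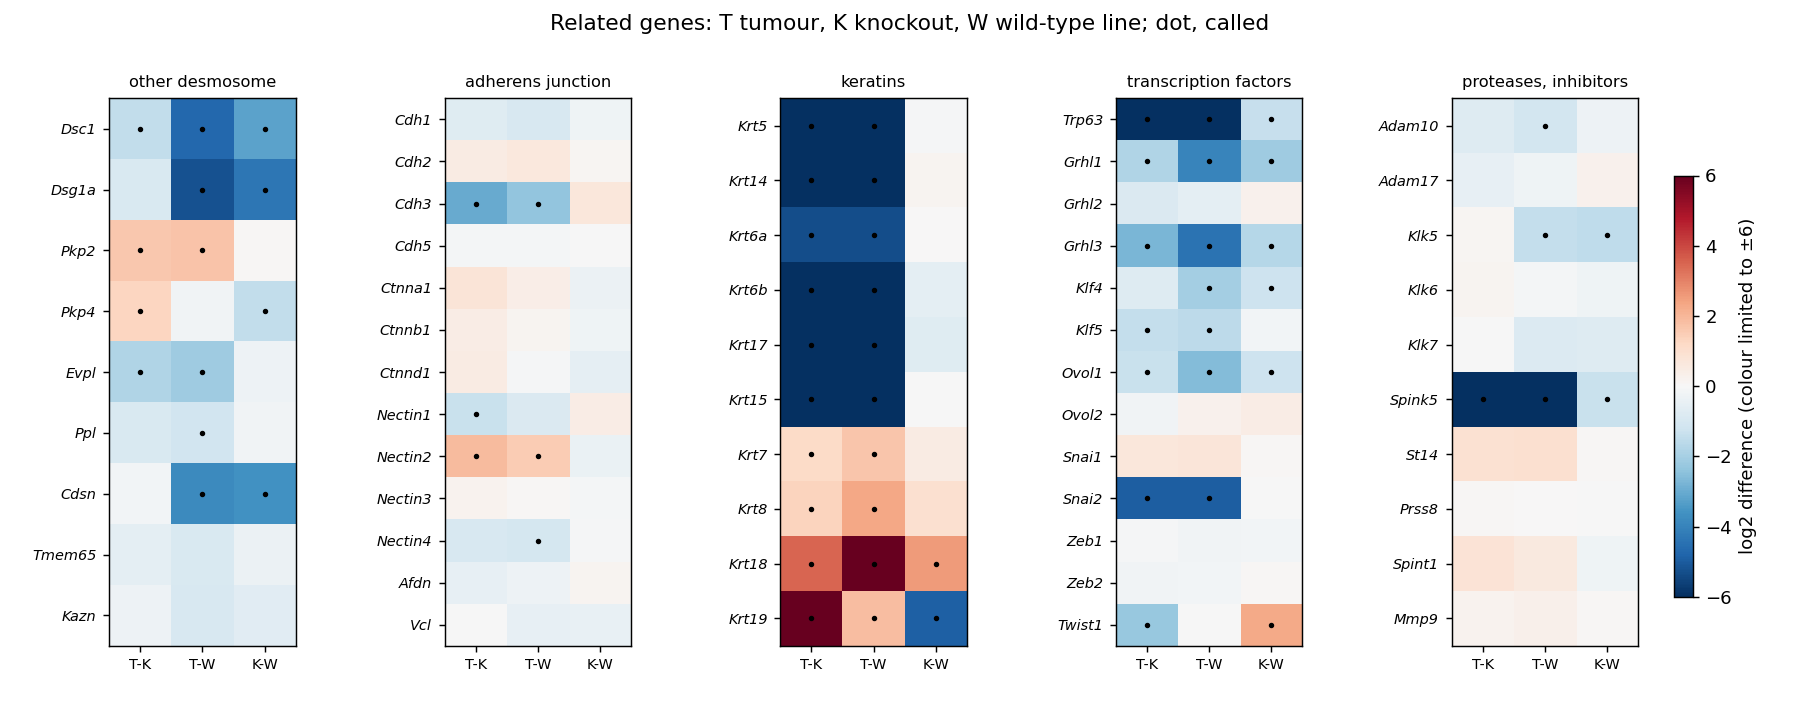
Log2 differences of the genes of the 5 related lists in tumour minus knockout (T-K), tumour minus wild-type (T-W) and knockout minus wild-type (K-W); colour runs to ±6 log2 units and a dot marks a called difference. The 6 stratified keratins fall and the 4 simple keratins rise in both tumour columns.

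Markers of other cell types were summed per array on the linear signal scale beside these results. The 8 airway basal-cell markers summed to 7862 to 8970 in the tumour line, 65224 to 66974 in knockout and 66815 to 70614 in wild-type, with Trp63 under the floor in the tumour line. Bright keratins weighed most in the tracheal sums, with Krt14 at 14.68 in knockout and 14.52 in wild-type. Of the 8, 4 were called lower in tumour minus knockout, 6 in tumour minus wild-type and 2 (Pdpn and Trp63) in knockout minus wild-type. None was called higher, and 6.38%, 8.46% and 2.98% of all genes were called lower. Ngfr averaged 6.39 in the tumour line, 6.52 in knockout and 6.47 in wild-type, and Itgb4 11.12, 11.39 and 10.54. The 8 simple-epithelium markers summed to 57142 to 58207, against 18318 to 21412 in knockout and 16398 to 17339 in wild-type. Krt8 (13.99) and Krt18 (14.08) weighed most in the tumour sum. Of the 8, 5 were called higher in tumour minus knockout, 6 in tumour minus wild-type and 2 in knockout minus wild-type, where 7.79%, 8.09% and 1.90% of all genes were. Krt19 was called lower in knockout minus wild-type, and Cdh1 was lower in the tumour line without a call (-0.71 and -0.97). The part of these marker differences in the desmosome differences was not tested. The 7 measured fibroblast markers summed to 402 to 411 in the tumour line, 398 to 425 in knockout and 411 to 459 in wild-type, with Col3a1 under the floor in each line. Endothelial markers summed to 357 to 378, 346 to 382 and 332 to 372 in the same order, with Emcn, Tek, Tie1 and Vwf under the floor in each line. Leukocyte markers summed to 724 to 776, 698 to 810 and 748 to 826, with Ptprc and Itgam under the floor in each line. The 6 ciliated-cell markers summed to 310 to 359, 413 to 445 and 309 to 341, with Ccdc39 under the floor in each line. The 8 muscle markers, listed because muscle also holds Dsg2 and Pkp2, summed to 2817 to 3248 in the tumour line, 1390 to 1405 in knockout and 2791 to 3246 in wild-type. Single genes carried these sums: Tnnt2 averaged 11.18 in the tumour line against 6.40 in knockout, Acta2 averaged 11.24 in wild-type, and Myh6 was under the floor in each line. Their part in the Dsg2 and Pkp2 values was not tested.

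For each member, the genes whose 3 line means ran most alike were found by the Euclidean distance of the means, each gene centred on its own average over the 3 lines. With 3 points per gene this is a description only. Means under the floor entered as they stood, so distances that use them rest partly on background-level signal. These were the tumour means of Dsc3, Dsg1b, Krt16, Trp63, Rptn, Tmprss11a, Auts2 and Orm1 (3.99) and the wild-type mean of Zfp229 (4.25). Dsc2 lay nearest to Bcl11b, a zinc-finger transcription factor, at a distance of 0.062 log2 units, and then to Auts2 (0.155). Dsc3 lay nearest to Krt16 (0.805), a stress keratin, and Trp63 (0.821), and Dsg1b to Rptn (0.246), a cornified-envelope protein gene, and then Tmprss11a (0.941). Dsg2 lay nearest to Zfp229 (0.452) and Eda2r (0.575). Pkp1 lay nearest to Cdh13 (0.0433) and P3h4 (0.101), Dsp to Orm1 (0.0138) and Enah (0.0421), and Perp to Hcfc1r1 (0.0149) and Dnajb1 (0.0346). Pkp3 lay nearest to Golga7 (0.0117) and Cyth1 (0.0156), and Jup to Etl4 (0.0112) and Sptssa (0.0318).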

How the data were processed

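The authors deposited 1 table of log2 signals for 45101 probe sets on 9 arrays. Its scale was taken from the values, and how the authors corrected, summarised and normalised the scans is not stated in the labels. The number of arrays limits the precision.

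Genes came from the annotation supplied for the platform, in which 64 probe sets were controls, 34945 had 1 symbol, 932 several and 9160 none. The brightest probe set with 1 symbol stood for its gene (18193 genes). All 9 arrays entered 1 linear model per gene in R 4.3.3 with limma 3.58.1 (lmFit, eBayes without trend, statmod 1.5.0, 6 residual degrees of freedom), and a second fit used every non-control probe set. All limma p-values are two-sided and Benjamini-Hochberg adjusted. The floor came from 27 bacterial control probe sets. The fits were tested on simulated data. Probe sets of several symbols or none were left out. The array's build is not given, so member positions are given as chromosomes only.

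Named genes were all members, the label check Gprc5a, up to 4 called genes per related list and comparison with the largest differences, and the 2 non-member genes nearest each member in pattern. Other genes named (Cdh1, Ppl, Krt5, Epcam, Nkx2-1, Sftpc, Zeb1, Zeb2, Snai1, cluster neighbours and others of the lists) were added after their values were seen. The members and lists were chosen with earlier results of these data known. Alternatives covered normalization, probe choice, filter, fold minimum, floor, a replicate block and leaving out each array. Deviations of same-numbered arrays correlated at -0.15 to 0.28, and those of differently numbered arrays reached 0.24. These ranges overlap, so they do not settle whether the numbers pair the arrays.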

Additional observations from a re-analysis of the deposited data

How the results depend on the processing

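The member counts called were 8 in tumour minus knockout, 9 in tumour minus wild-type and 3 in knockout minus wild-type. With no fold minimum, knockout minus wild-type gave 5, since Dsc2 and Jup joined, while 26.4% of all genes were then called, against 4.88% with it. With a 4-fold minimum the counts were 6 (without Dsg2 and Pkp3), 7 (without Jup and Pkp3) and 3. The 6 include Dsg1b by its log2 difference of -2.96, though its bound against the floor was at least 1.76-fold. Leaving out each array in turn gave 8 to 8, 9 to 9 and 3 to 4 members, with Dsc2 joining the last without wild-type replicate 1, knockout replicate 2 or knockout replicate 3. With replicate number as a block the counts were 8, 9 and 3. Averaging a gene's probe sets left Pkp3 uncalled in tumour minus knockout (-0.84) and called Dsc2 in knockout minus wild-type (-1.12). With the highest bacterial control value as floor, the bounds against knockout were at least 13.0-fold for Dsc3 and 1.00-fold for Dsg1b, and those against wild-type at least 75.0-fold and 17.6-fold. Uncalled differences near 0 changed sign in knockout minus wild-type: Perp was 0.017 after quantile normalization and -0.042 to 0.037 with arrays left out (above 0 in 4 of these fits, at 0.0044, 0.0042, 0.0038 and 0.037), and Dsp was 0.018 over the mean of its probe sets. Counting each single member under each alternative, 544 values kept direction and call, 6 changed sign, 9 gained a call and 5 lost one. Some alternatives, such as another fold minimum or the replicate block, leave the log2 differences as they are. Direction could not change there, so these values are not separate checks of it. Each group is 1 line on 3 arrays, and signals under the floor give bounds only.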
